A study of Mus musculus with 4 samples.

Results

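The genes described here are 44 genes of the NRF2 pathway and of glutathione metabolism in bone marrow-derived dendritic cells (BMDCs), antigen-presenting cells grown in culture from bone marrow. They comprise every soluble glutathione S-transferase gene (Gst followed by a class letter and a number) listed in both deposited tables, 21 genes, and 23 genes named one by one, from the regulator gene Nfe2l2 to the superoxide dismutases Sod1 and Sod2. The 44 genes are among 14823 genes listed in both tables, of 15394 in unstimulated and 15310 in stimulated cells. The set was chosen because Nqo1 and Gsta3 were low in the knockout library in both states. All knockout-over-wild-type values below are therefore a description of the libraries and carry no test of the set.

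The study compared BMDCs of C57BL/6 mice, 8 weeks old, that were wild type (WT) or lacked GOLPH2 (GOLPH2 KO). GOLPH2 is a Golgi membrane protein, and its gene is Golm1. WT and KO cells were studied unstimulated or stimulated, that is after IFN-gamma priming for 16 h followed by 4 h of LPS, a bacterial cell wall component. Each of the 4 groups had 1 library of strand-specific mRNA sequencing, so no difference has a replicate check, and the p-values compare libraries and not conditions. The part of Golm1 removed in the KO, the number of mice behind a library and the culture conditions are not stated in the labels.

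The transcription factor NRF2, encoded by Nfe2l2, is held at a low level by KEAP1, which presents it for degradation. When electrophiles or oxidants modify KEAP1, NRF2 accumulates, pairs with a small MAF protein and binds antioxidant response elements near genes for glutathione synthesis, thioredoxin reduction, NADPH supply and detoxification. Glutathione is the main small thiol of the cell: peroxidases use it to reduce peroxides, glutathione S-transferases couple it to electrophiles, and glutathione reductase regenerates it. In dendritic cells and macrophages, this system meets the oxidants that the cells make after contact with microbial products.

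Promoter sequences are shown for 5 genes that recur in the results: Gsta3 and Nqo1, by which the set was chosen, Prdx1, Nfe2l2 and Gclm. The sequences are those of RefSeq (GRCm38.p6), 5′ to 3′ on the strand of the gene, up to 250 bases before the start, ending before the annotated gene. Capitals mark the letters TGACNNNGC, the core of the antioxidant response element, or the same letters read from the opposite strand. The Gsta3 stretch lies at chr1:21240335-21240584 (plus strand), Nqo1 at chr8:107403207-107403455 (minus strand), Prdx1 at chr4:116685349-116685543 (plus strand), Nfe2l2 at chr2:75704664-75704913 (minus strand) and Gclm at chr3:122245307-122245556 (plus strand).
Gsta3: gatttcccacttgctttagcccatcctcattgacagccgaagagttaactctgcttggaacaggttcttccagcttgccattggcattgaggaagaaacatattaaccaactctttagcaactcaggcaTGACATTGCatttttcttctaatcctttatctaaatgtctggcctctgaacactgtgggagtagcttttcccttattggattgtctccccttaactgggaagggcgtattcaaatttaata
Nqo1: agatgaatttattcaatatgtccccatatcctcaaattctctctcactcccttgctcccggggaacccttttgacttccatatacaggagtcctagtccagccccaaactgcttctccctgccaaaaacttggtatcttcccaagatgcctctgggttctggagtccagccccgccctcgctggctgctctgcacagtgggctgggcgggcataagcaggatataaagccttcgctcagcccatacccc
Prdx1: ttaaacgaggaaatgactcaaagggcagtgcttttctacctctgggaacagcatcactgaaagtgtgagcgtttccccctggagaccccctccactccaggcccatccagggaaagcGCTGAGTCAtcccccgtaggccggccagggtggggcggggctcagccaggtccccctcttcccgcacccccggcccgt
Nfe2l2: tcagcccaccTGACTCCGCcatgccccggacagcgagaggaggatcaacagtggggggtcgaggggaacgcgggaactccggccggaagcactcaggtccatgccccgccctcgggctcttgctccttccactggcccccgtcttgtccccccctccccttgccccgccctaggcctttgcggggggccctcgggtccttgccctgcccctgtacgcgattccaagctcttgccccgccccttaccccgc
Gclm: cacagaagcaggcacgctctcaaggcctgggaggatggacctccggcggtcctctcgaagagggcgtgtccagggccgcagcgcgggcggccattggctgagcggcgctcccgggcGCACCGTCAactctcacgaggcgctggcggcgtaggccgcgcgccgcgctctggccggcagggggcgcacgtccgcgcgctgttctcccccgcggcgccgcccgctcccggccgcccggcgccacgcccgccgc

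Distances are counted to the RefSeq start, which for Prdx1 lies inside the annotated gene, so the stretch shown for it ends short of that start. In Gsta3 the motif TGACATTGC began 121 bases before the start. In Nfe2l2 the motif TGACTCCGC began 240 bases before the start, and in Prdx1 the opposite strand carried it as GCTGAGTCA, 133 bases before the start, where it overlaps the AP-1 motif TGACTCA. Gclm carried it on the opposite strand as GCACCGTCA, 134 bases before the start. The Nqo1 stretch held no match, which says only that these letters are not in this window. Searched on both strands over the 250 bases before each RefSeq start, the motif was found in 9 of the 40 member genes with a promoter entry (22.5%), the others being Gstm5, Gstm7, Mgst1, Sod1 and Txnrd1. The share was 13.9% of the 11645 genes of the tables with an entry and 11.5% of all 27025 genes with one. A match is a description of the letters and not a site of binding. Gclc, Gsr, Gsta4 and Gstt2 were without an entry.

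Each table gives a log2 ratio and a −log10 p per gene, and the pair of values fixed the whole number of reads in both libraries for every gene whose p lay below the highest value the table holds. The library totals obtained in this way, rounded, were 34645800 reads in WT and 39557600 reads in KO unstimulated cells, and 37711500 reads in WT and 36782000 reads in KO stimulated cells. Levels are given as reads or as CPM, the reads scaled to a common library total. Ratios are log2 ratios of CPM, KO over WT, with the counting error of the reads (1 SE, written after ±), which holds no spread between cultures. The deposited ratio has no scaling for depth: the scaling subtracted 0.191 from every ratio of unstimulated cells and -0.036 from every ratio of stimulated cells. A gene was called lower or higher where the Benjamini-Hochberg adjusted p over all genes of its table, from the authors' deposited p, was under 0.001. Reads could be given for 42 of the 44 genes in all 4 libraries; Prdx1 and Sqstm1 were at the limit of the deposited p in both states and have a ratio with an upper limit of its error.

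Golm1 itself had 779 reads in the WT and 190 in the KO library of stimulated cells, or 25.0% of the WT level after scaling, and stood at 23.5% of it in unstimulated cells. The 9 dendritic cell markers that could be summed stood at 5605 CPM in WT and 5928 CPM in KO unstimulated cells. After stimulation they stood at 6160 and 6610 CPM, and 7 of 10 were called higher in the KO library in each state. Clec10a (0.84 and 0.86) and Batf3 (0.51 and 0.57) had the highest ratios of these markers. Beside this count and the marker counts below, 4.7% of all genes were called higher and 4.27% lower in unstimulated cells. After stimulation the shares were 5.36% and 6.54%. The 10 markers of macrophages and monocytes held 6 higher calls and 1 lower call in unstimulated cells, and 5 higher and 1 lower after stimulation. Their sum was 2009 CPM in WT and 2074 in KO unstimulated cells and 1847 and 1956 CPM after stimulation, much of it from Adgre1 (listed as Emr1), at 966 to 1078 CPM. Fcgr1 had ratios of 0.66 and 0.27, while the abundant Csf1r was called lower in both states (-0.27 and -0.15). Of the 11 fibroblast and stromal markers, 5 were called higher in unstimulated cells, and 7 higher and 1 lower after stimulation, with sums of 79.7 CPM in WT and 114 in KO unstimulated cells and of 86.4 and 156 CPM after stimulation. Much of these sums was Thy1, at 55.2 CPM in WT and 73.0 in KO unstimulated cells and at 51.5 and 68.6 CPM after stimulation. The collagen gene Col3a1 went from 3 reads in WT to 226 in KO stimulated cells, and Col1a1 from 33 to 367. Of the neutrophil markers, Lcn2 was called lower in both states (-0.37 and -0.24) and no other was called. The 4 that could be summed stood at 218 CPM in WT and 169 in KO unstimulated cells and at 338 and 286 CPM after stimulation. Nearly all of this was Lcn2, at 212 and 164 CPM, then 330 and 280 CPM, so the sum repeats its call. Ly6g and Elane were not listed. Hdc, the 1 mast cell and basophil marker listed in both states, was called lower in both (-0.29 and -0.14), with 112 to 353 CPM, and Ms4a2 and Fcer1a were not listed. Csf1r, Lcn2 and Hdc, the markers called lower in both states, had higher ratios, nearer to 0, after stimulation. Of all genes called lower in unstimulated cells, 78.1% had a higher ratio after stimulation. Of 5 endothelial markers (62.5 to 84.4 CPM in sum), 1 was called lower after stimulation, and of 7 lymphocyte markers (8.49 to 15.5 CPM in sum) 1 was called higher in each state. The part of other cells in the results below was not tested, and in these bulk libraries fewer cells of a type and less RNA per cell cannot be told apart.

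In unstimulated cells 16 of the 44 genes were called lower in the KO library (4.27% of all genes were), 2 were called higher (4.7% of all genes) and 26 were not called. After stimulation 13 were called lower (6.54% of all genes), 3 were called higher (5.36%) and 28 were not called. The 12 genes called lower in both states were Nfe2l2, Sqstm1, Slc7a11, Gclc, Gsr, Nqo1, Prdx1, Srxn1, Txnrd1, Cat, Gstm1 and Gsta3, where 2.23% of all genes were lower in both. The glutathione peroxidase genes Gpx1 and Gpx4 were called higher in both states (2.96% of all genes), and no gene was called in opposite directions. The median log2 ratio of the 44 genes was -0.23 in unstimulated and -0.10 in stimulated cells, and that of all genes was 0.0013 and 0.0052. Of the called ratios of the 44 genes, that of Sod2 in unstimulated cells was the 1 whose sign turned when the deposited ratio was read without scaling for depth.

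**Figure D1:**
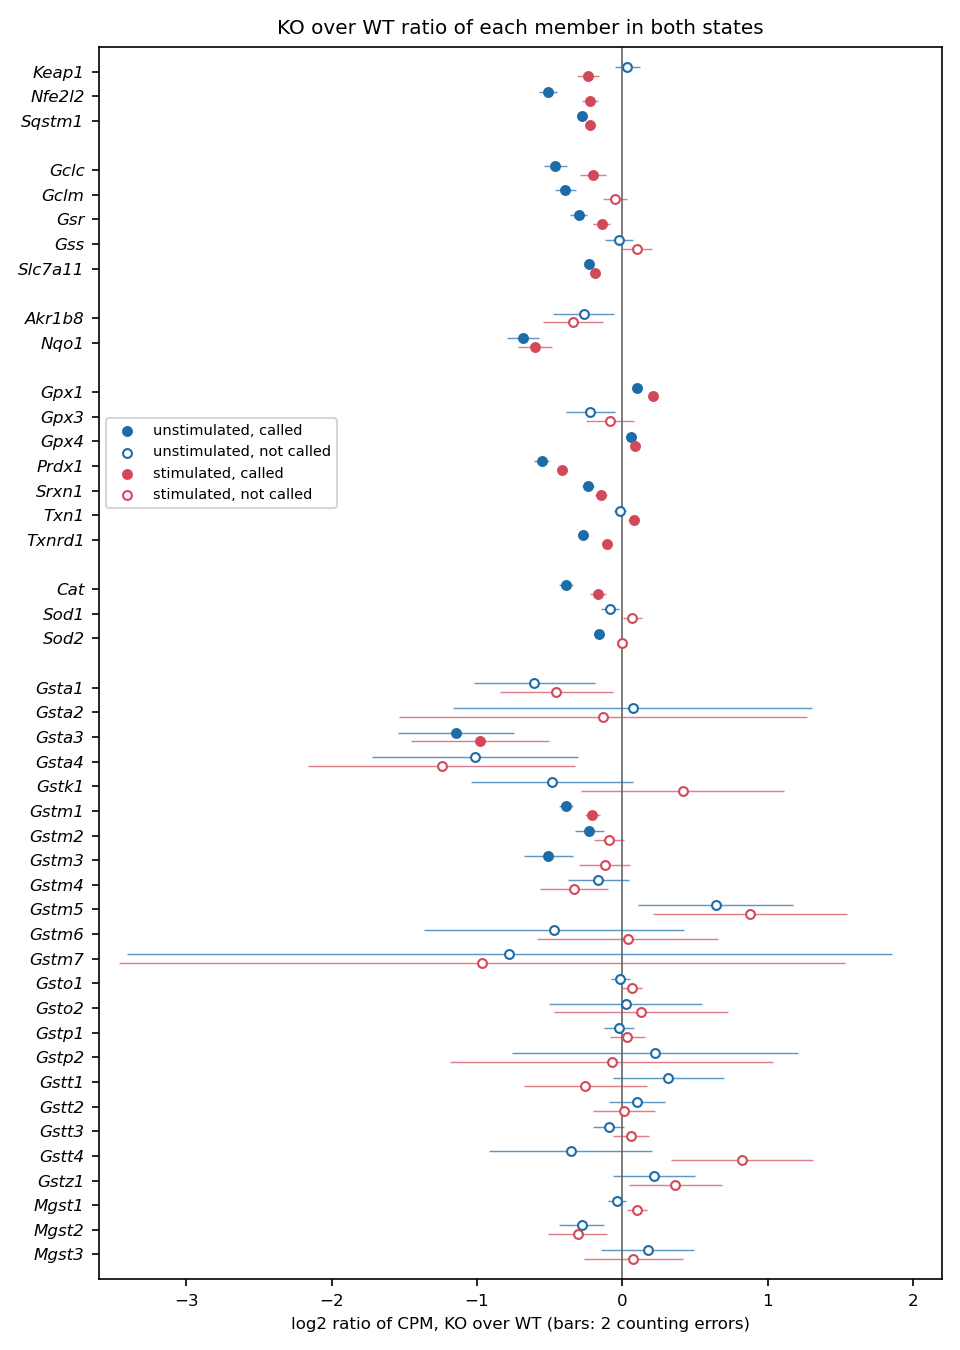
Log2 ratio of CPM, KO over WT, of each of the 44 genes in unstimulated (blue) and stimulated (red) cells, grouped by role from regulators at the top to transferases at the bottom; bars are 2 counting errors and filled points are called genes. Nqo1 (-0.68 and -0.60) and Gsta3 (-1.15 and -0.98) lie far to the left in both states, Gpx1 and Gpx4 lie right of 0, and the called Sod2 ratio of unstimulated cells is the 1 filled point that crosses 0 on the deposited scale.

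Most of the called differences were small. A fold of 1.5 or more together with a call was reached by Nqo1 and Gsta3 in each state and by no other gene of the set. Nqo1 and Gsta3 are the genes for whose low ratios the set was chosen. Their calls at this size follow from that choice and are no result about the set. Over all genes 0.299% were called lower and 0.409% higher at that size in unstimulated cells, and 0.594% lower and 0.425% higher after stimulation. Gsta3 was the 1 gene of the set among 161 genes that the authors' deposited table marks as differentially expressed without stimulation. For stimulated cells Nqo1 and Gsta3 were among the 159 genes marked in the authors' deposited table, and none of the genes the authors marked as key genes, 13 and 12, was a member. In unstimulated cells the called gene nearest to the threshold was Gpx4, with an adjusted value of 0.000644, and the nearest gene outside it was Mgst2, with 0.0027. In stimulated cells these were Gsta3, with 0.000223, and Gstt4, with 0.00418.

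Nqo1 encodes NAD(P)H:quinone oxidoreductase, which reduces quinones without a radical intermediate and is among the most used readouts of NRF2 activity. It lies on chromosome 8 (107388225 to 107403206, minus strand, GRCm38). It had 1630 reads in the WT and 1160 in the KO library of unstimulated cells, or 47.0 and 29.3 CPM. After stimulation it had 1565 and 1007 reads, or 41.5 and 27.4 CPM. Both KO libraries lay below both WT libraries, and the log2 ratios were -0.68 ± 0.055 and -0.60 ± 0.058, or 62.3% and 66.0% of the WT level. Akr1b8, an aldo-keto reductase and the other reductase of the set, was not called in either state, at -0.26 ± 0.10 and -0.34 ± 0.10.

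Gsta3 encodes an alpha class glutathione S-transferase known in mice for coupling glutathione to the epoxide of aflatoxin. The gene lies on chromosome 1 (21240589 to 21265661, plus strand). It was a gene of few reads: 155 in WT and 80 in KO unstimulated cells, and 111 and 55 after stimulation. These are 4.47, 2.02, 2.94 and 1.495 CPM, so both KO libraries again lay below both WT libraries. Its ratios of -1.15 ± 0.20 and -0.98 ± 0.24 stood for 45.2% and 50.8% of the WT level. Because of the low counts the error of its ratio was several times that of Nqo1. Of all stretches of 50 bases of its exons, 0.273% occur in another annotated gene, and those of Nqo1 occur in none.

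The ratios of the regulators spread more widely in unstimulated cells, from -0.51 to 0.04, than in stimulated cells, from -0.24 to -0.22. Nfe2l2 had 5049 reads (145.7 CPM) in WT and 4038 (102.1 CPM) in KO unstimulated cells, a ratio of -0.51 ± 0.030. After stimulation it had 5928 reads (157.2 CPM) and 4959 (134.8 CPM), a ratio of -0.22 ± 0.028. The KO library was the lower one in each state, and the gap between the libraries was smaller after stimulation. Keap1, which encodes the adaptor that marks NRF2 for degradation, had 2146 reads in WT and 2511 in KO unstimulated cells, 61.9 and 63.5 CPM, and was not called (0.04 ± 0.042). After stimulation it had 3378 and 2799 reads, 89.6 and 76.1 CPM, and was called lower (-0.24 ± 0.037). Sqstm1, which encodes p62, an autophagy receptor that binds KEAP1 and is itself an NRF2 target, was called lower in both states, at -0.27 and -0.22 with errors of at most 0.013 and 0.0085.

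Among the genes that supply glutathione, the cystine importer Slc7a11 had 21728 reads (627 CPM) in WT and 21141 (534 CPM) in KO unstimulated cells, and 26811 (711 CPM) and 22973 (625 CPM) after stimulation. Its ratios were -0.23 ± 0.014 and -0.19 ± 0.013, called lower in both states. Gclc and Gclm encode the catalytic and the modifier subunit of glutamate-cysteine ligase, the rate-limiting enzyme of glutathione synthesis. Gclc stood at 83.0 CPM in WT and 60.3 in KO unstimulated cells (-0.46 ± 0.040) and at 57.8 and 50.3 CPM after stimulation (-0.20 ± 0.046), and was called lower in both. Gclm stood at 100.8 and 76.8 CPM in unstimulated cells (-0.39 ± 0.036) and at 70.9 and 68.5 CPM after stimulation, where its ratio of -0.05 ± 0.040 was not called. Both subunits were lower in the unstimulated KO library. Gss, the synthetase that completes glutathione, was called in neither state (-0.02 ± 0.047 and 0.10 ± 0.052). Gsr, the reductase that regenerates glutathione, stood at 150.6 and 122.3 CPM in unstimulated and at 132.2 and 119.7 CPM in stimulated cells (-0.30 ± 0.029 and -0.14 ± 0.030), and was called lower in both.

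In the thioredoxin and peroxiredoxin system, Prdx1, an abundant peroxide-reducing enzyme, had ratios of -0.56 and -0.42 with errors of at most 0.026 and 0.016. Of the stretches of 50 bases in Prdx1 exons, 8.29% are shared with other annotated genes, pseudogenes among them. Srxn1, the sulfiredoxin that reactivates overoxidised peroxiredoxins, stood at 292 CPM in WT and 248 in KO unstimulated cells and at 266 and 241 CPM after stimulation (-0.24 ± 0.020 and -0.15 ± 0.021). Txnrd1, the reductase of thioredoxin, stood at 541 and 447 CPM in unstimulated and at 649 and 602 CPM in stimulated cells (-0.27 ± 0.015 and -0.11 ± 0.013). These 3 enzymes were called lower in both states. Txn1, the thioredoxin that Txnrd1 reduces, differed from them: it was not called in unstimulated cells (-0.02 ± 0.020) and was called higher after stimulation (0.08 ± 0.018), with 326 CPM in WT and 344 in KO cells.

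The glutathione peroxidases were called higher or were not called. Gpx1, the cytosolic enzyme that reduces hydrogen peroxide, had 22581 reads (652 CPM) in WT and 27688 (699.9 CPM) in KO unstimulated cells, and 17381 (461 CPM) and 19632 (534 CPM) after stimulation. Its ratios were 0.10 ± 0.013 and 0.21 ± 0.015, so the KO library was the higher one in each state. Gpx4, which reduces lipid peroxides in membranes, had ratios of 0.06 ± 0.015 and 0.09 ± 0.017. For Gpx4, 34.7% of the stretches of 50 bases occur in a pseudogene, Gpx4-ps2, so its reads could be split or shared. Gpx3, the secreted peroxidase, was not called, at -0.22 ± 0.084 and -0.08 ± 0.083 (17.4 and 14.9 CPM, then 16.8 and 15.9 CPM).

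Cat encodes catalase, which breaks down hydrogen peroxide in peroxisomes. It stood at 228 CPM in WT and 174 in KO unstimulated cells and at 160 and 143 CPM after stimulation, with ratios of -0.39 ± 0.024 and -0.17 ± 0.027, called lower in both states. Sod2, the superoxide dismutase of mitochondria and a gene induced by NF-κB, stood at 359 and 322 CPM in unstimulated cells (-0.16 ± 0.018, called lower). After stimulation the libraries stood level at 649 and 648 CPM (-0.00066 ± 0.013, not called). The deposited Sod2 ratio of unstimulated cells, without scaling, was 0.031 in the authors' deposited table. Sod1, the cytosolic dismutase, was called in neither state (-0.08 ± 0.031 and 0.07 ± 0.033).

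**Figure D2:**
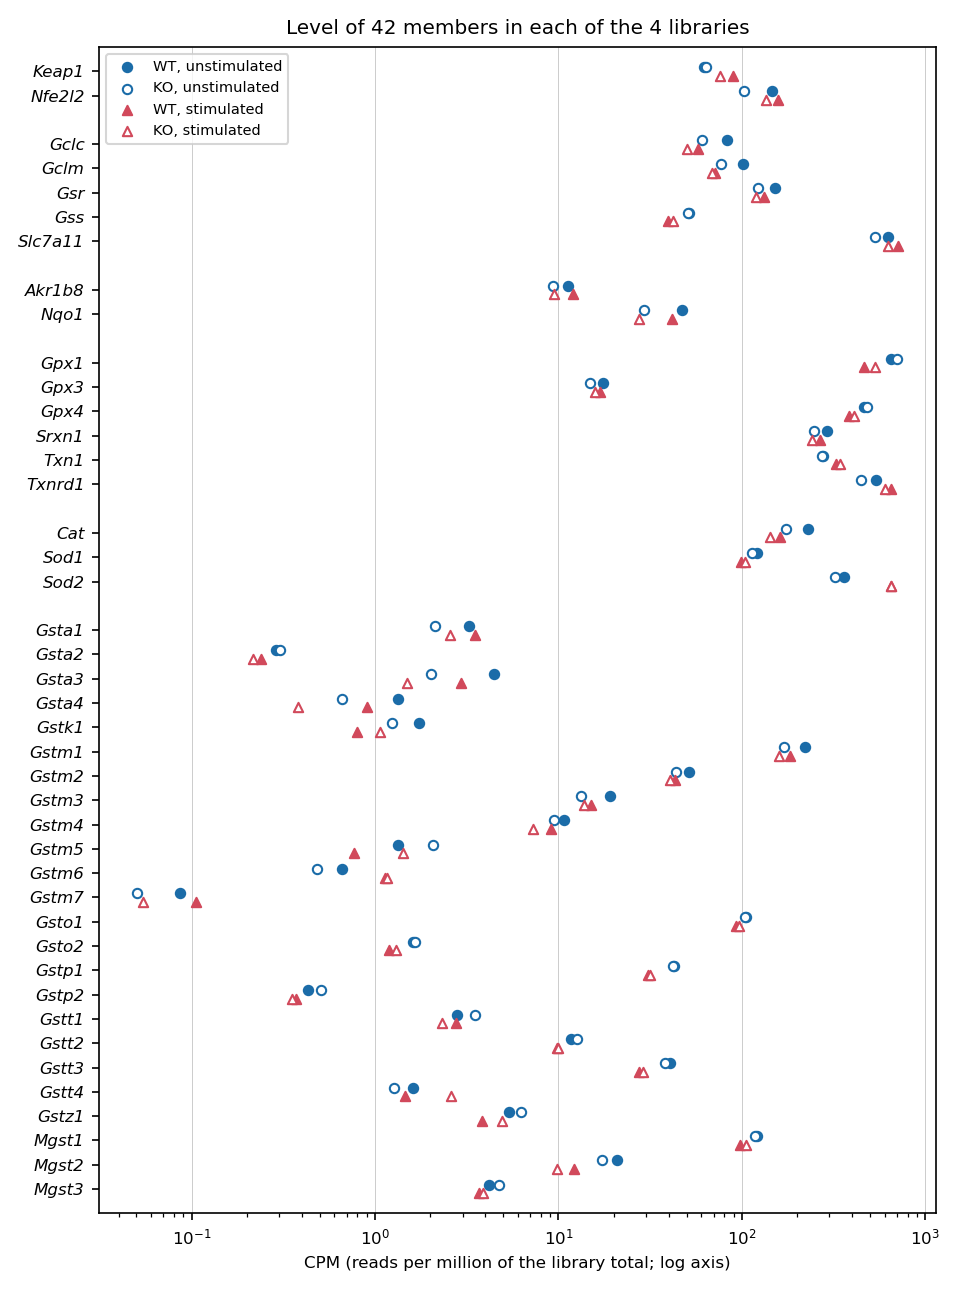
Level in CPM (log axis) of the 42 genes with reads in each of the 4 libraries, WT filled and KO open, unstimulated circles in blue and stimulated triangles in red, grouped by role. The Nqo1 symbols of both KO libraries (29.3 and 27.4 CPM) lie left of both WT symbols (47.0 and 41.5 CPM), while the Sod2 symbols of stimulated cells fall on each other (649 and 648 CPM).

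Of the 24 transferase genes, 21 soluble and 3 microsomal (Mgst1 to Mgst3), 4 were called lower in unstimulated cells (4.27% of all genes) and 2 in stimulated cells (6.54% of all genes), and none was called higher. The called genes besides Gsta3 belong to the mu class and lie in 1 cluster on chromosome 3. Its members in order along the chromosome are Gstm5, Gstm7, Gstm6, Gstm3, Gstm2, Gstm1 and Gstm4, from 107895821 to 108044894. Gstm1, the most abundant transferase of these cells, stood at 220 CPM in WT and 168 in KO unstimulated cells and at 183 and 159 CPM after stimulation (-0.39 ± 0.024 and -0.21 ± 0.026, called lower in both). Gstm2 was called lower in unstimulated cells (-0.23 ± 0.049) and not after stimulation (-0.09 ± 0.052). Gstm3 was likewise called lower in unstimulated cells (-0.51 ± 0.084; 19.0 and 13.3 CPM) and not after stimulation (-0.12 ± 0.088; 14.98 and 13.8 CPM).

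The other genes of the cluster had fewer reads. Gstm4, next to Gstm1, was not called (-0.16 ± 0.11 and -0.33 ± 0.12), and Gstm5 at the other end had ratios of 0.64 ± 0.27 and 0.88 ± 0.33, the highest of the set in each state, on 46 and 82 and on 29 and 52 reads. Gstm6 and Gstm7 rested on 19 to 43 and on 2 to 4 reads. Reads within this family can be misassigned: 28.8% of the stretches of 50 bases of Gstm3 and 18.9% of those of Gstm1 occur in another annotated gene.

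The other alpha class genes lie together on chromosome 9 and had few reads. Gsta4, an enzyme for the lipid peroxidation product 4-hydroxynonenal, had 46 and 26 reads in unstimulated and 34 and 14 in stimulated cells. Its ratios of -1.01 ± 0.35 and -1.24 ± 0.46 stood beside -1.15 and -0.98 for Gsta3, and neither was called. Gsta1 had ratios of -0.61 ± 0.21 and -0.45 ± 0.19, also not called, and shares 90.5% of its stretches of 50 bases with other genes, Gm3776 first. Gsta2 rested on 8 to 12 reads. The 4 theta class genes, the 2 pi class genes, the 2 omega class genes, Gstz1 and Gstk1 were not called in either state. Among them the abundant Gsto1 (104.7 and 103.7 CPM in unstimulated cells) and Gstp1 (42.8 and 42.2 CPM) had ratios of -0.01 ± 0.033 and -0.02 ± 0.052 in unstimulated cells. Gstp1 and Gstp2 share sequence: 33.7% of the stretches of Gstp1 occur in Gstp2. Of those of Gstp2, 49.1% occur in Gstp1 and 54.3% in any other annotated gene. Mgst1, a membrane enzyme at 97.6 to 121 CPM, was not called (-0.04 ± 0.031 and 0.10 ± 0.033), and neither were Mgst2 (-0.28 ± 0.077 and -0.31 ± 0.10) and Mgst3 (0.18 ± 0.16 and 0.08 ± 0.17).

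Of the 26 genes not called in unstimulated cells, 19 lay within 2 counting errors of 0, with ratios from -1.01 to 0.64 over all 26. Of the 28 not called in stimulated cells, 18 lay within 2 counting errors of 0, with ratios from -1.24 to 0.88 over all 28. A missing call at this depth does not show equal levels: at the counting error of Gsta4 in unstimulated cells, 0.35, a level 2-fold lower in the KO library was not called.

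**Figure D3:**
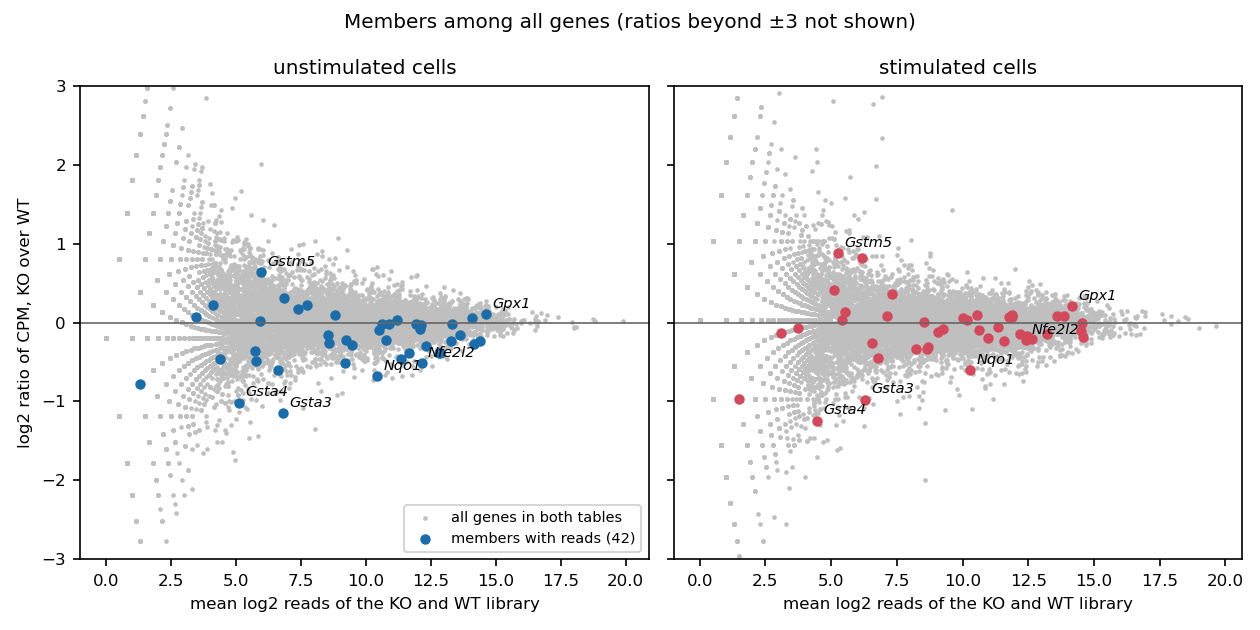
Log2 ratio of CPM, KO over WT, against the mean log2 reads of both libraries, for all genes (grey) and the 42 genes of the set with reads (coloured), in unstimulated (left) and stimulated (right) cells. The grey cloud widens towards few reads, where Gsta3, Gsta4 and Gstm5 lie, while Nqo1 lies below the cloud's centre at higher read numbers, with ratios of -0.68 and -0.60.

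Levels of different genes can be set side by side only per length, here as CPM per kb of annotated exon (GENCODE M21) in unstimulated WT cells. On this scale Gpx1 (452) was the highest of the 42 genes, followed by Gpx4 (268), Txn1 (264), Gstm1 (149) and Srxn1 (104). Cat (87.3), Txnrd1 (76.3), Mgst1 (60.2), Gsr (54.7) and Gsto1 (51.7) came next. Nfe2l2 stood at 38.4 and Keap1 at 13.2. Nqo1, at 30.3, lay between Nfe2l2 and Keap1, and Gsta3, at 1.03, near the lower end of the set. Among the transferases the range was from 0.054 for Gstm7 to 149 for Gstm1, and Gstm1, Mgst1, Gsto1, Gstm2 and Gstp1 made up the upper end.

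The ratios of the 44 genes were in the main higher in stimulated than in unstimulated cells, which for the genes low in the KO means nearer to 0. The difference between the states, stimulated minus unstimulated log2 ratio, had a median of 0.13 over the 44 genes and of -0.00050 over all 14823 genes. Without scaling for depth, as deposited, the median over the 44 genes was -0.10, the reverse direction, because every ratio then shifts by the depth of the libraries. With scaling, the difference lay above 0 by more than 2 counting errors for 19 of the 44 genes (43.2%; 8.35% of all genes). It lay below 0 by as much for 2, Keap1 and Gstt1 (4.55%; 8.85% of all genes). Such shares depend on the reads of the genes, and no share over genes of like read number stands beside them. Among the 42 genes with reads, the differences largest beside their errors were those of Txnrd1 (0.17 ± 0.020), Nfe2l2 (0.29 ± 0.041), Sod2 (0.16 ± 0.022), Gclm (0.34 ± 0.054) and Cat (0.22 ± 0.036). Prdx1 and Sqstm1 have only upper limits of their errors and cannot be ranked. All 16 genes called lower in unstimulated cells had a higher, less negative ratio after stimulation, and of the 657 genes of both tables called lower in unstimulated cells, 513 had (78.1%). A gene picked for a low value in 1 state is set against a value not picked, so such a shift has to be read beside that of all genes. The difference of Nqo1 was 0.08 ± 0.080 and that of Gsta3 0.17 ± 0.31, both within 2 counting errors of 0.

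Across the 44 genes the ratios of unstimulated and stimulated cells had a Pearson r of 0.70 and a Spearman rho of 0.58, and 30 genes had the same sign in both. Over the 36 genes of low counting error (at most the error given by 50 reads a library) both were 0.62, and 26 had the same sign. These values describe genes within 4 libraries, are not over independent replicates and carry no p. Both sets hold Nqo1 and Gsta3, for whose low ratios in both states the set was chosen. The values are therefore not independent of that choice, and no value over all genes stands beside them. The 2 comparisons share no library.

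The reads also give the response to stimulation within each genotype, as the log2 ratio of CPM in stimulated over unstimulated cells, a quantity that did not enter the choice of the genes. Over all genes its median was -0.14 in WT and -0.16 in KO cells, and over the 42 genes of the set it was -0.25 in WT and -0.17 in KO cells. In WT cells 4 of the 42 genes were at least 1.5-fold lower after stimulation (12.9% of all genes) and 2 were at least 1.5-fold higher (9.3%). In KO cells 3 were at least 1.5-fold lower (13.6%) and 3 at least 1.5-fold higher (8.27%). With 1 library per group these counts have no test.

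Sod2 and Gstm6 were at least 1.5-fold higher after stimulation in both genotypes (5.07% of all genes were). For Sod2 the response was 0.85 ± 0.016 in WT and 1.01 ± 0.016 in KO cells, and for Gstm6 it was 0.78 ± 0.37 and 1.28 ± 0.40, on few reads. Mgst2, an enzyme that makes leukotriene C4 in some cells, was at least 1.5-fold lower in both (7.07% of all genes were), at -0.79 ± 0.086 and -0.81 ± 0.094. Past 1.5-fold in 1 genotype lay genes of few reads. Gsta3, Gstk1 and Gstm5 were lower after stimulation in WT cells. In KO cells Gsta4 and Gstt1 were lower and Gstt4 was higher (1.03 ± 0.25). Between these ends, Gpx1 (-0.50 ± 0.015 and -0.39 ± 0.013) and Cat (-0.51 ± 0.025 and -0.29 ± 0.026) were lower after stimulation in both genotypes, and Txnrd1 (0.26 ± 0.014 and 0.43 ± 0.015) and Slc7a11 (0.18 ± 0.013 and 0.22 ± 0.014) were higher.

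The subunits of glutamate-cysteine ligase were lower after stimulation by a larger amount in WT than in KO cells: Gclc by -0.52 ± 0.041 and -0.26 ± 0.045, and Gclm by -0.51 ± 0.037 and -0.17 ± 0.039. The response of Nfe2l2 was 0.11 ± 0.028 in WT and 0.40 ± 0.031 in KO cells, where its level went from 102.1 to 134.8 CPM, still under the unstimulated WT level of 145.7 CPM. Keap1 was the reverse, with 0.53 ± 0.040 in WT and 0.26 ± 0.040 in KO cells. Nqo1 was lower after stimulation in WT cells, at -0.18 ± 0.051, and within 2 counting errors of 0 in KO cells, at -0.10 ± 0.062. The medians over all genes were -0.14 and -0.16. The response of KO minus that of WT is by construction the same number as the difference between the states given above, and it adds no further evidence.

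**Figure D4:**
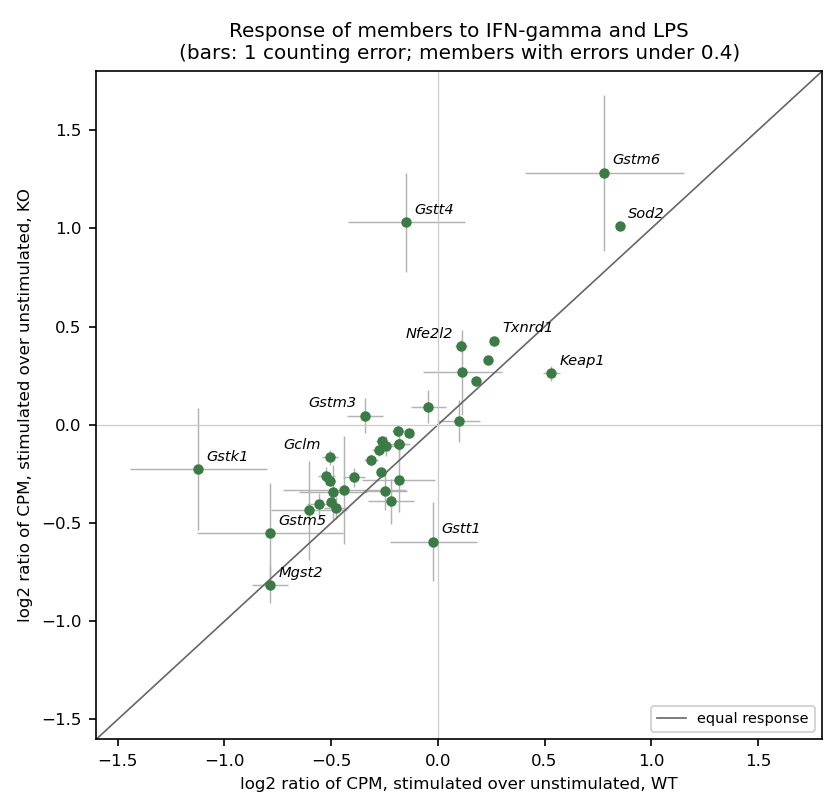
Log2 ratio of CPM, stimulated over unstimulated, in KO cells (vertical axis) against WT cells (horizontal axis) for the 38 genes of the set whose counting error was under 0.4 in both; bars are 1 counting error and the line marks equal response. Sod2 lies at the upper right (0.85 and 1.01), Mgst2 at the lower left (-0.79 and -0.81), Nfe2l2, Gclm and Txnrd1 above the line and Keap1 below it.

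Of 26 other NRF2 targets listed in unstimulated cells, 7 were called lower in the KO library and 2 higher, and of 25 listed in stimulated cells 6 were called lower and 4 higher (all genes: 4.27% and 4.7%, then 6.54% and 5.36%). Esd, called lower in unstimulated cells (-0.12), turns to 0.07 as deposited. The 6 lower in both states (2.23% of all genes were) were Hmox1, G6pdx, Pgd, Me1, Abcc1 and Abcc4, singled out here after their values were seen. Hmox1, the haem-degrading enzyme, had ratios of -0.40 and -0.33. G6pdx, Pgd and Me1 supply NADPH, on which glutathione and thioredoxin reduction draw. Their ratios were -0.25 ± 0.026 and -0.12 ± 0.028 for G6pdx, -0.34 and -0.16 for Pgd, and -0.41 ± 0.10 and -0.42 ± 0.10 for Me1. Abcc1 and Abcc4 are exporters of conjugates. Abcc4, at -0.47 ± 0.067 and -0.50 ± 0.062, had the lowest ratio of this list in each state. The ferritin genes Ftl1 and Fth1, which store iron, were higher in both states by small amounts (0.01 and 0.07 for Ftl1, 0.02 and 0.14 for Fth1), and their direction did not turn on the deposited scale. The highest ratios of the list were those of Akr1b3 on 1 and 2 reads in unstimulated cells and of Osgin1 (0.26 ± 0.16) in stimulated cells, neither called. The median ratio of the list was -0.06 and -0.04.

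Of 10 partners of NRF2 and genes for its turnover, Cul3, the scaffold of the KEAP1 ubiquitin ligase, was called lower in unstimulated cells (-0.21 ± 0.034; -0.07 ± 0.034 after stimulation, not called). The small MAF gene Maff was called higher after stimulation (0.19 ± 0.039). Of all genes, 4.27% were called lower in unstimulated cells and 5.36% higher after stimulation. Bach2, a repressor that pairs with small MAF proteins, had the lowest ratio of this list in each state (-0.71 ± 0.28 and -0.31 ± 0.35, not called). The highest in unstimulated cells was Rbx1 (0.16 ± 0.044, not called), the ring subunit of the same ligase. Of 18 other redox enzymes, Prdx5 and Prdx6 were called lower and Glrx higher in both states (2.23% and 2.96% of all genes). The unstimulated ratio of Prdx5 (-0.16) turns to 0.04 as deposited. Prdx6 had -0.30 ± 0.021, the lowest of this list in unstimulated cells, and -0.18 ± 0.023. Prdx2 was called higher in unstimulated and Txn2 in stimulated cells. The highest ratios of the list, Gpx7 in unstimulated (0.66 ± 0.57) and Glrx2 in stimulated cells (0.29 ± 0.085), and the lowest in stimulated cells, Msrb2 (-0.25 ± 0.41), were not called. None of 11 genes for glutathione breakdown and transport was called in either state (all genes: 4.27% lower and 4.7% higher, then 6.54% and 5.36%). Their ratios ran from -0.89 ± 0.65 (Ggt1, 13 and 8 reads) to 0.13 ± 0.057 (Lap3) in unstimulated cells and from -0.79 ± 0.60 (Ggt1) to 0.10 ± 0.13 (Chac2) in stimulated cells.

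The NADPH oxidase makes superoxide in phagocytes. Of its 6 genes, Cybb, Ncf1 and Ncf4 were called lower in both states (2.23% of all genes were). The unstimulated ratios of Cybb (-0.06) and Ncf4 (-0.15) turn to 0.13 and 0.04 as deposited, without scaling for depth. Cyba was called higher in both states (2.96% of all genes) and Rac2 in stimulated cells (5.36%). Ncf1, the lowest, had ratios of -0.27 ± 0.016 and -0.25 ± 0.015, and Cyba, the highest, of 0.09 ± 0.014 and 0.18 ± 0.015. Over the 71 genes of these 5 lists in unstimulated cells 13 were called lower and 5 higher (4.27% and 4.7% of all genes), and over 70 in stimulated cells 11 and 9 (6.54% and 5.36%). No gene of these lists reached a called fold of 1.5 in either state.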

How the data were processed

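BMDCs of WT and GOLPH2 KO mice gave 4 libraries, 1 per group. The submitters' processing notes name the build mm10 and the tools HTSeq 0.6.0 and FastQC 0.10.1, without their roles. Aligner, annotation, strand setting and test remain not given in the sources used here. Both tables that the authors deposited compare KO with WT and hold a log2 fold change per the file headers. The second measure, −log10 p as deposited by the authors, does not exceed 100 without and 150 with stimulation.

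From the values, and not from any label, the deposited ratio is that of whole reads without scaling (0 reads entered as 0.5), and the p is a two-sided normal p of the ratio relative to that of the library totals. Solving both columns gave whole reads for 15343 of 15394 and 15260 of 15310 genes, every gene under the limit of p, and returned the deposited normal deviate within a relative 1.5e-06 and 2.5e-06. Tested on simulated data of 15148 and 15082 genes, it returned the right reads for 99.99% and 100% of the genes under the limit. The simulated p-values were made with the same formula, so this checks the solving and not whether the authors used that formula. Reads behind these p-values are not replicated, so errors hold counting error only, and reads without molecular identifiers are not independent molecules.

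Log2 ratios of CPM, counting errors and Benjamini-Hochberg adjustment over all genes of a table were computed in Python 3.11.15 with numpy 2.4.6, pandas 2.3.3 and scipy 1.17.1. A call is an adjusted p under 0.001, with the direction of the scaled ratio. Genes were named by rule: every member called in either state, with both ratios; others where they are Nfe2l2, Keap1, a glutathione synthesis enzyme or the 1 measured member of a class; and of the other lists the highest and lowest member and those called at 1.5-fold. Further names were chosen after their values were seen. List genes not found by symbol were sought by their RefSeq synonyms (Emr1 for Adgre1, Selt for Selenot). The members and lists were chosen with earlier results of these data known. Alternatives were the deposited ratios, ratios centred on the median gene, an adjusted p under 0.05, a 1.5-fold requirement and a filter on low reads. The response to stimulation, and its centring on the median gene, were added after seeing the data. Gene positions and exon lengths are from GENCODE M21 (GRCm38, the build called mm10), by symbol, and promoters from RefSeq (GRCm38.p6).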

Additional observations from a re-analysis of the deposited data

Results flagged for a closer look

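Sod1, the cytosolic superoxide dismutase, had a log2 ratio of CPM, KO over WT, of -0.0834 ± 0.031 in unstimulated and of 0.0680 ± 0.033 in stimulated cells (counting error, 1 library per group). The libraries of the 2 states thus differed in opposite directions, each by more than 2 counting errors. This holds with the scaling for depth: as deposited, the ratios were 0.108 and 0.032, the same direction in both. The gene was called in neither state, and whether the ratios differ between the states was not tested, since no group has a replicate.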

How the results depend on the processing

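Of 28 alternatives for the counts, medians and the difference between the states, 23 kept their direction and stayed within 1.5 times the count or within counting error. Part of these could not change: calls rest on the deposited p. The number of genes called in a state is therefore fixed under the deposited and the centred ratios, where only a direction can turn. Read as deposited, without scaling for depth, the median ratio of the 44 genes in unstimulated cells was -0.037 in place of -0.228, while the median difference between the states was -0.098 in place of 0.129. Both moves are the shift in the zero point. Of 34 called ratios, that reading moved 23 by more than their error, and the Sod2 ratio in unstimulated cells turned to 0.0313. Centring on the median gene moved none of the 34 by more than its error. With 1.5-fold required besides the adjusted p, 2 genes were called without stimulation and 2 with it, and 2 the same way in both, in place of 18, 16 and 14. These were Nqo1 and Gsta3, for whose low ratios the set was chosen. At an adjusted p under 0.05 the counts were 23, 23 and 16, and higher calls after stimulation went from 3 to 6; of all genes 8.50% were then lower and 9.36% higher in unstimulated, and 11.7% and 10.2% in stimulated cells. No paired analysis was possible because each group has 1 library, and for the same reason no library could be left out. Depth limits the set where genes have few reads: of the transferases, 19 of 24 in unstimulated and 16 of 24 in stimulated cells had at most the counting error that 50 reads a library give.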
